A study of Mus musculus with 6 samples.

Results

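The SLC25 genes encode the mitochondrial carriers, and 38 of the 13962 genes in the deposited table belonged to them, taken as every row whose gene name was Slc25a followed by a number. No carrier name occurred on more than 1 row. The RNA came from mouse beige adipocytes, fat cells of white depots that can take on heat-producing features, grown from inguinal preadipocytes of the C57BL/6 background that were immortalized with the large T antigen. All cells, controls included, had the genotype TLE3F/F CreERT2, which is floxed Tle3 with a Cre recombinase that tamoxifen switches on, and all were differentiated in insulin (20 nM), T3 (1 nM) and rosiglitazone (1 uM), with isobutylmethylxanthine (0.5 mM), dexamethasone (0.5 uM) and indomethacin (0.125 mM) in the first medium. On day 4 they were given ethanol (controls, n = 3) or 500 nM 4-hydroxytamoxifen (the libraries labelled TLE3 knockout, n = 3) for 24 hours, and RNA was taken on day 10. TLE3 is a corepressor that acts through DNA-binding partners. The labels name no promoter that drives Cre. They do not say that replicates were separate cultures, so each p-value rests on spread among libraries that may be only technical. Tamoxifen was not given to cells without Cre here, so tamoxifen, Cre activity and deletion cannot be told apart.

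Mitochondrial carriers are membrane proteins, nearly all of the inner mitochondrial membrane, that exchange or import the small molecules the matrix needs and releases: nucleotides, phosphate, carboxylic and amino acids, acylcarnitines, cofactors and iron. They share a fold of tandem repeats and differ in the substrate they bind. Ucp1, the proton leak of brown and beige fat, is itself a family member under another name. In such cells carriers deliver fuel to oxidation (acylcarnitine, the reducing equivalents of the malate-aspartate shuttle) and move ADP, ATP and phosphate.

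Total counts were 14606228 to 19294632 per library. Tle3 itself went against its label: it was higher in the libraries labelled knockout (log2 fold change 0.94, SE 0.0378, edgeR adjusted p 3.54e-07). Reads over the whole gene were counted, including exons that deletion of a floxed part would keep, which leaves the labels unchecked, and every direction below is that of the libraries labelled knockout relative to controls. Adipocyte identity was visible in both groups, since all 8 adipocyte markers had a row and their summed level was 9586 to 11394.5 CPM (counts scaled by TMM-adjusted library size) in controls and 10615 to 12189 CPM in the libraries labelled knockout. Of these 8, 1 rose and 0 fell by edgeR (adjusted p under 0.05). Among all tested genes 6.91% rose and 5.44% fell, the shares to set beside each marker count here. The summed level of fibroblast and preadipocyte markers was lower, at 20892 to 24054.5 against 18532 to 19443 CPM, and of 10 members 5 fell and 1 rose. The most abundant member, Fn1, was among those that fell, from 9829 ± 683 to 7194 ± 224 CPM (SD, n = 3). The member that rose was the preadipocyte marker Dlk1 (1.65-fold, edgeR adjusted p 0.00363). Beige and brown markers summed to 518 to 613 and 844 to 984 CPM, with 6 of 9 that rose. Macrophage markers summed to at most 5.39 CPM and endothelial markers to at most 3.55 CPM in any library, and Ptprc, Itgam, Cdh5 and Cldn5 matched no row. Of the transcripts of the mitochondrial genome 8 of 13 had a row and 0 were called by edgeR (median −0.035 on the log2 scale). The part these shifts played in the carrier results was not tested. In bulk RNA, fewer cells of a type and less RNA per cell cannot be told apart.

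The carriers did not move as a block: 10 of 38 rose, 1 fell and 27 were not called (edgeR quasi-likelihood test, Benjamini-Hochberg adjusted p under 0.05 over all 13192 tested genes, in which all 38 were tested). Among all tested genes 6.91% rose, 5.44% fell and 12.3% were called in either direction. For the carriers these shares were 26.3%, 2.63% and 28.9%. Their median log2 fold change was 0.051, beside −0.0025 over all tested genes, and 22 of 38 had a positive value. Every library labelled knockout lay above every control for 13 carriers (34.2%, against 16.0% of all tested genes) and below every control for 5 (13.2%, against 15.8%). The carriers that rose and are described here were spread over substrates: both genes of ADP/ATP exchange, and 1 gene each for oxoglutarate and malate, aspartate and glutamate, ornithine, acylcarnitine, glutathione, calcium-regulated ATP-Mg transport and a substrate that is not settled. The number that rose was 6 without control 1 and 4 without knockout 3, and 7 to 12 without any 1 of the other 4 libraries.

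**Figure D1:**
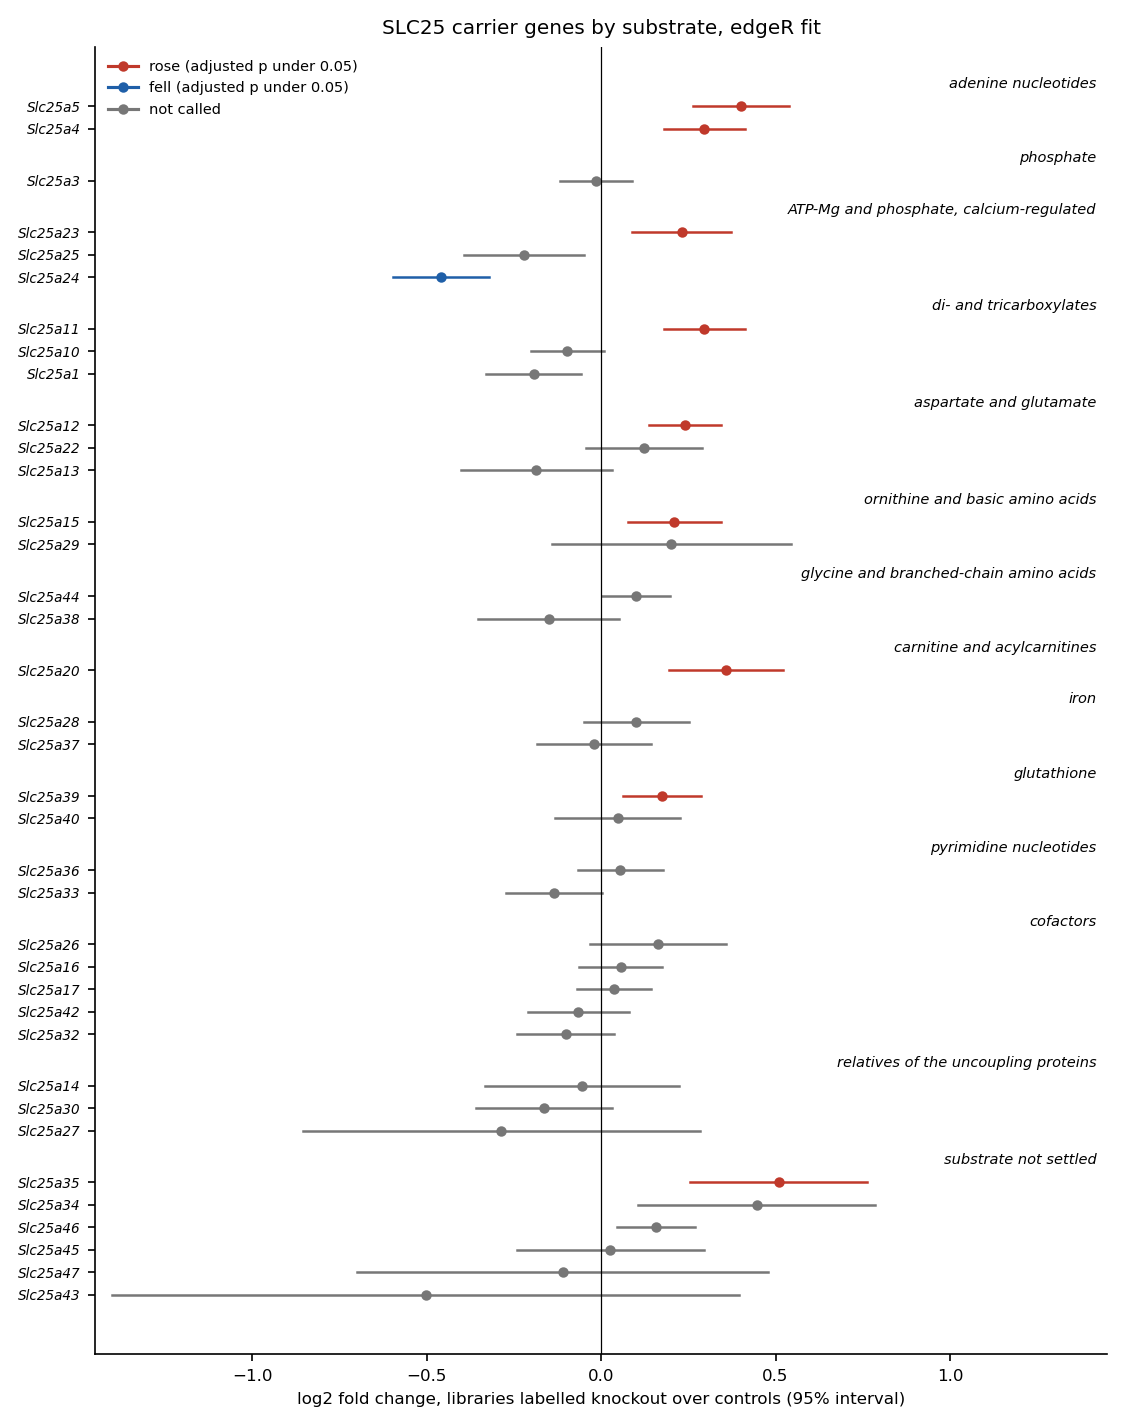
Log2 fold change of 37 of the 38 carrier genes (x axis, libraries labelled knockout over controls, bars are unadjusted 95% intervals), grouped by substrate on the y axis and coloured by the edgeR call. The rises lie between 0.17 and 0.51 and the fall, Slc25a24, at −0.46. Some groups hold both called and uncalled genes, while others, such as iron and pyrimidine nucleotides, hold only uncalled ones.

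ADP/ATP exchange, the step that brings ADP into the matrix and lets ATP out, was the most abundant carrier function and it rose. Slc25a5 (ENSMUSG00000016319), the widely expressed ADP/ATP carrier, stood at 378, 396 and 343 CPM in controls 1 to 3 and at 455, 514 and 505 CPM in the libraries labelled knockout, a log2 fold change of 0.40 (SE 0.0625, adjusted p 0.00275). Slc25a4 (ENSMUSG00000031633), the carrier typical of heart and muscle, stood at 676, 673 and 613 CPM against 766, 821 and 822 CPM (log2 0.30, SE 0.0529, adjusted p 0.00571). Neither gene's groups overlapped, and both calls held without each library in turn. Slc25a3 (ENSMUSG00000061904), which imports the phosphate that ATP synthase joins to ADP and also copper, did not pass the test: it was at 657, 674 and 629 CPM and at 623, 663 and 654 CPM (log2 −0.014, 95% interval −0.12 to 0.088, adjusted p 0.879). Its groups overlapped in part, knockout 1 being the lowest and control 2 the highest of the 6 libraries, and its sign turned without control 2 or knockout 1. Slc25a5 has 1 named pseudogene in GENCODE M21, and how reads shared with it were counted is not given in the sources used here.

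By the FPKM values, which were deposited rounded to whole numbers, the order of the family was led by 4 genes. FPKM divides by a length per gene that was not checked here, so the order, shares and ratios below depend on it. In CPM, which is not divided by length, Slc25a3 and Slc25a4 were nearly level in controls, at means of 653 and 654. Slc25a4 had 279 ± 13.1 and 339 ± 10.1 rounded FPKM (SD, n = 3) in controls and in the libraries labelled knockout, Slc25a5 had 227 ± 14.2 and 297 ± 16.4, Slc25a39 111 ± 5 and 124 ± 3.79, and Slc25a3 118 ± 3.06 and 116 ± 2.52. Slc25a39, a glutathione carrier, and Slc25a3 had nearly the same mean over all 6 libraries, 117.3 and 117.0, within their spread. These 4 made up 58.3% of the summed rounded FPKM of all carriers in controls and 60.8% in the libraries labelled knockout. The part of Slc25a4 and Slc25a5 together went from 40.1% ± 0.576 to 44.2% ± 0.686 and that of Slc25a3 from 9.38% ± 0.133 to 8.04% ± 0.0951. The 2 ADP/ATP carriers together were at 4.35, 4.34 and 4.14 times the level of Slc25a3 in controls 1 to 3 and at 5.35, 5.54 and 5.58 times in the libraries labelled knockout. The summed level of all 38, which was not tested, went from 1278, 1303 and 1207 to 1393, 1460 and 1462 rounded FPKM, without overlap.

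**Figure D2:**
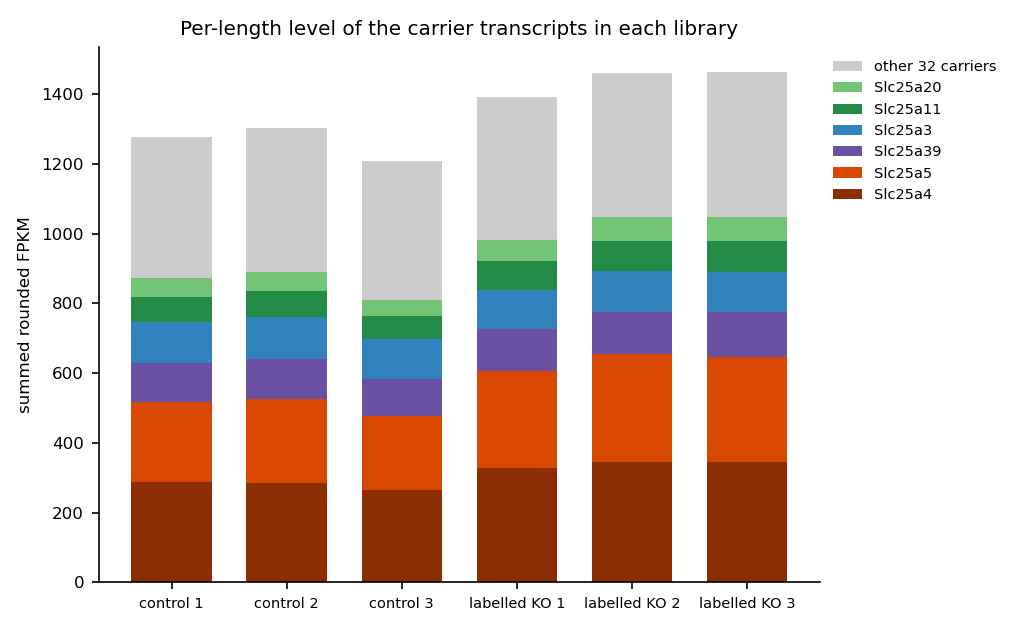
Rounded FPKM of the carrier transcripts stacked per library (y axis, summed rounded FPKM; x axis, the 6 libraries), with the 6 most abundant carriers coloured and the rest in grey. The ADP/ATP carriers Slc25a4 and Slc25a5 form the lower part of each bar and are taller in the libraries labelled knockout, where the whole bar reaches 1393 to 1462 against 1207 to 1303 in controls.

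To show the upstream sequence of carriers with different outcomes, the 250 bases before the RefSeq start are given for the ADP/ATP carriers, for the acylcarnitine carrier Slc25a20 that also rose, for Slc25a3 that was not called, and for Slc25a24 that fell (RefSeq, GRCm38.p6, another build than the mm9 of the submitters' notes; 5′ to 3′ on the gene's strand). The bases RefSeq gives just after the start of Slc25a5 were not found in a GENCODE M21 transcript of that gene, unlike those of the other 4 genes shown, so its start and orientation are unchecked here. Capitals mark matches to motifs searched on both strands.
Slc25a4, chr8:46211063-46211312, minus strand: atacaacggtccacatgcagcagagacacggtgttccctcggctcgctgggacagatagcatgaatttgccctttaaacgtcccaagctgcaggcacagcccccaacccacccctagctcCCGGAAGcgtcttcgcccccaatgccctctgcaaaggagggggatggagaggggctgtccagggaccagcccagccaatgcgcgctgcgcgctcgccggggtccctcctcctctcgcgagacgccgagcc
Slc25a20, chr9:108661886-108662135, plus strand: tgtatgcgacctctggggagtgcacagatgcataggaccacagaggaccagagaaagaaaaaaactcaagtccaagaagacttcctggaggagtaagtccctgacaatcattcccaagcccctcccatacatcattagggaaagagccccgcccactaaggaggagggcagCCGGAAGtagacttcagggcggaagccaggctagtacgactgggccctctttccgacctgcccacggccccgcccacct
Slc25a3, chr10:91123968-91124217, minus strand: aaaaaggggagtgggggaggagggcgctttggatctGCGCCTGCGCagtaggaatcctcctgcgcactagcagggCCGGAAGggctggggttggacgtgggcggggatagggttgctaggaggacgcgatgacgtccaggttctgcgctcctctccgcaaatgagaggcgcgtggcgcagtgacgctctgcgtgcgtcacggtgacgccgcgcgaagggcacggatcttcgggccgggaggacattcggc
Slc25a5, chrX:36795347-36795596, plus strand: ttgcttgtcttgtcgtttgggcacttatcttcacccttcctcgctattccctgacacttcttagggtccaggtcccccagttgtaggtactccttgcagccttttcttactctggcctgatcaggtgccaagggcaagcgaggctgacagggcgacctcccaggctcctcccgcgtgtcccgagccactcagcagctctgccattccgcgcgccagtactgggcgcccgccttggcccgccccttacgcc
Slc25a24, chr3:109122899-109123148, plus strand: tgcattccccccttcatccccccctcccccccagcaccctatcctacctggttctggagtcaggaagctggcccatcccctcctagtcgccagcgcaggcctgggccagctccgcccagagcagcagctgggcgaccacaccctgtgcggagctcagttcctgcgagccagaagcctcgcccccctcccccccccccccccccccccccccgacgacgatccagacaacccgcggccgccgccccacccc
The motifs were the ERR element TCAAGGTCA, the ETS core CCGGAAG, the NRF1 site, the PPAR element and the EBF site, and the matches in the printed windows do not overlap each other. Of the 30 carriers with a window, 5 held the ETS core (Slc25a4, Slc25a20, Slc25a3, Slc25a17 and Slc25a38), beside 7.83% of 27025 genes with windows of the same length. Of the 8 carriers that rose and had a window, 2 held it, beginning 130 bases before the start in Slc25a4 and 79 in Slc25a20. The uncalled Slc25a3 held both an ETS core, 175 bases before the start, and the NRF1 site, 214 bases before it, which 4.23% of all genes held. The ERR element (0.422% of genes), the PPAR element (0.0407%) and the EBF site (0.914%) matched 0 of the 30. A match is a run of letters in this window and not a shown binding site.

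The carriers of the malate-aspartate shuttle, which passes the electrons of cytosolic NADH to the matrix, rose in part. Slc25a11 (ENSMUSG00000014606) exchanges oxoglutarate for malate, and it stood at 151, 155 and 138 CPM in controls and at 173, 181 and 190 CPM in the libraries labelled knockout (log2 0.30, SE 0.0531, adjusted p 0.00578). Slc25a12 (ENSMUSG00000027010), the aspartate/glutamate carrier of excitable tissues, went from 79.9, 82.7 and 77.3 to 92.2, 92.9 and 98.1 CPM (log2 0.24, adjusted p 0.00826). Its liver-type partner Slc25a13 (ENSMUSG00000015112) was at 9.14, 10.3 and 10.5 and at 8.98, 8.92 and 8.37 CPM (log2 −0.19, 95% interval −0.40 to 0.03, adjusted p 0.249). None of the 3 genes had overlapping groups; Slc25a11 and Slc25a12 passed the test with the libraries labelled knockout on top, and Slc25a13, with them below, did not. In GENCODE M21 8.92% of the exon bases of Slc25a11 overlap Rnf167 on the opposite strand, which had a log2 fold change of 0.025 (adjusted p 0.815). The call for Slc25a12 was lost without knockout 3 (adjusted p 0.052). Of the 4 enzymes of the shuttle 3 rose, namely the malate dehydrogenase Mdh1 (1.37-fold, adjusted p 0.00327) and the aspartate aminotransferases Got2 (1.16-fold, 0.0107) and Got1 (1.13-fold, 0.0328), and their median log2 fold change was 0.22. Mdh2, the mitochondrial malate dehydrogenase, had a log2 fold change of 0.22 with adjusted p 0.0515. The call for Got2 was lost without knockout 3, and that for Got1 without control 1, control 3, knockout 1 or knockout 3. Slc25a22, a glutamate carrier, was at 43.9, 48.3 and 40.3 and at 47.8, 44.2 and 51.9 CPM, and its groups overlapped (adjusted p 0.318).

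The other carboxylate carriers had negative fold changes that missed the threshold. Slc25a1 (ENSMUSG00000003528) exports citrate, the carbon source of cytosolic fatty acid synthesis, and it was at 80.4, 88.4 and 74.8 CPM in controls and at 73.9, 69.4 and 69.2 CPM in the libraries labelled knockout (log2 −0.19, SE 0.0617, adjusted p 0.0643). The groups did not overlap, and the gene passed the threshold without control 3 (adjusted p 0.0228) and with library size alone as the scaling (0.045). Slc25a10, which exchanges dicarboxylates for phosphate, was at 96.4 ± 4.25 and 90.1 ± 2.24 CPM (SD, n = 3; edgeR adjusted p 0.214). Of 8 genes that make or use the exported citrate, 2 rose and 0 fell, among them citrate synthase Cs, which forms citrate in the matrix (1.23-fold, adjusted p 0.019). Acly, the enzyme that splits citrate in the cytosol, had a log2 fold change of 0.037 (adjusted p 0.784). The call for Cs was lost without control 1, knockout 2 or knockout 3.

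The acylcarnitine carrier rose, and among its enzymatic neighbours Cpt1b and Cpt2 rose while Cpt1a fell. Slc25a20 (ENSMUSG00000032602), which trades acylcarnitine for free carnitine across the inner membrane, was at 95.02, 99.8 and 81.9 CPM in controls and 108, 124 and 121 CPM in the libraries labelled knockout (log2 0.36, SE 0.074, adjusted p 0.0107). Every control was below all 3 of these. In the carnitine shuttle list of 6 genes 2 rose and 1 fell, with a median of 0.17: Cpt1b, which forms acylcarnitine, rose 1.73-fold (adjusted p 0.000506), Cpt2, which reverses the step in the matrix, rose by 0.27 on the log2 scale (0.0164), and Cpt1a, the liver-type form of the first enzyme, fell by 0.30 on the log2 scale (0.00802). The call for Slc25a20 was lost without knockout 3 (adjusted p 0.060) and that for Cpt2 without knockout 2 or knockout 3.

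**Figure D3:**
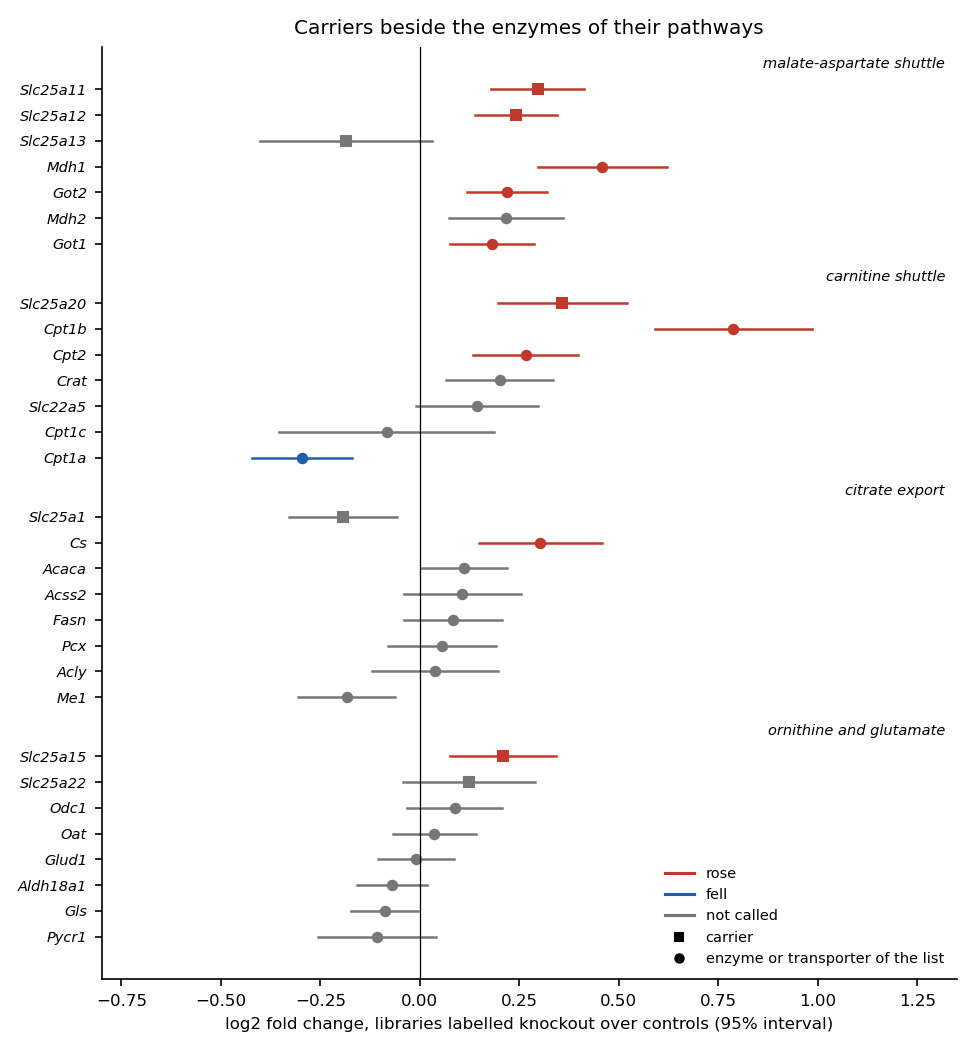
Log2 fold change (x axis, unadjusted 95% intervals) of carriers, drawn as squares, and of the enzymes and transporters listed with them, drawn as circles, in 4 pathways. In the malate-aspartate and carnitine shuttles rises are found among squares and circles alike, while Slc25a1 lies at −0.19 with Cs to the right of 0.

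The calcium-regulated carriers of ATP-Mg and phosphate, which set the adenine nucleotide content of the matrix, split: of 3 genes 1 fell and 1 rose. Slc25a24 (ENSMUSG00000040322) fell and had the smallest adjusted p of the family: it was at 56.1, 57.1 and 62.9 CPM in controls and at 46.0, 41.0 and 41.2 CPM in the libraries labelled knockout (log2 −0.46, SE 0.0627, 95% interval −0.60 to −0.32, adjusted p 0.00144). Slc25a23 (ENSMUSG00000046329) rose, from 54.4, 62.6 and 55.9 to 64.5, 65.7 and 72.5 CPM (log2 0.23, SE 0.0644, adjusted p 0.0389). Slc25a25 was at 22.4, 20.9 and 20.1 and at 19.3, 16.8 and 18.1 CPM, with no overlap but no call (log2 −0.22, adjusted p 0.0924). Antisense Gm17168 overlaps 3.17% of the exon bases of Slc25a23 in GENCODE M21 and was not analysed here. The fall of Slc25a24 held without each library in turn, whereas the rise of Slc25a23 was lost when control 1, control 3, knockout 2 or knockout 3 was left out (0.0712 to 0.176).

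The balance between paralogs was compared as the share of 1 gene in the counts of a pair, which does not depend on library scaling. An exact two-sided permutation test over 3 against 3 libraries cannot go below 0.1, so none of the 8 pairs could pass 0.05, and the smallest adjusted p was 0.2. In 4 of the 8 pairs the groups did not overlap, each with p = 0.1 by the exact test. Slc25a13 made up 10.3%, 11.1% and 11.9% of its pair with Slc25a12 in controls and 8.88%, 8.76% and 7.86% in the libraries labelled knockout. Slc25a4 went from 63.7% ± 0.684 to 62.0% ± 0.634 of the ADP/ATP pair, since Slc25a5 rose by more. Slc25a33 went from 40.1% ± 0.909 to 37.0% ± 0.448 of its pair with Slc25a36, both carriers of pyrimidine nucleotides, although neither gene was called (adjusted p 0.184 and 0.569). In CPM, Slc25a33 was at 37.7, 43.5 and 42.8 against 37.2, 38.4 and 37.2, and Slc25a36 at 57.4, 66.4 and 61.1 against 63.5, 64.0 and 64.3, and both overlapped between groups. Slc25a25 went from 26.5% ± 2.19 to 29.8% ± 0.770 of its pair with Slc25a24. Both genes had negative log2 fold changes, −0.22 for the uncalled Slc25a25 and −0.46 for Slc25a24, so this share is not a rise of Slc25a25. The pair of Slc25a23 and Slc25a24, added after their values were seen, had the widest gap of those computed: Slc25a23 made up 49.2%, 52.3% and 47.0% in controls and 58.4%, 61.6% and 63.8% in the libraries labelled knockout. The mitoferrins Slc25a37 and Slc25a28 and the pairs of glutathione, coenzyme A and Slc25a34 with Slc25a35 overlapped between groups (exact p 0.2 to 0.8).

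**Figure D4:**
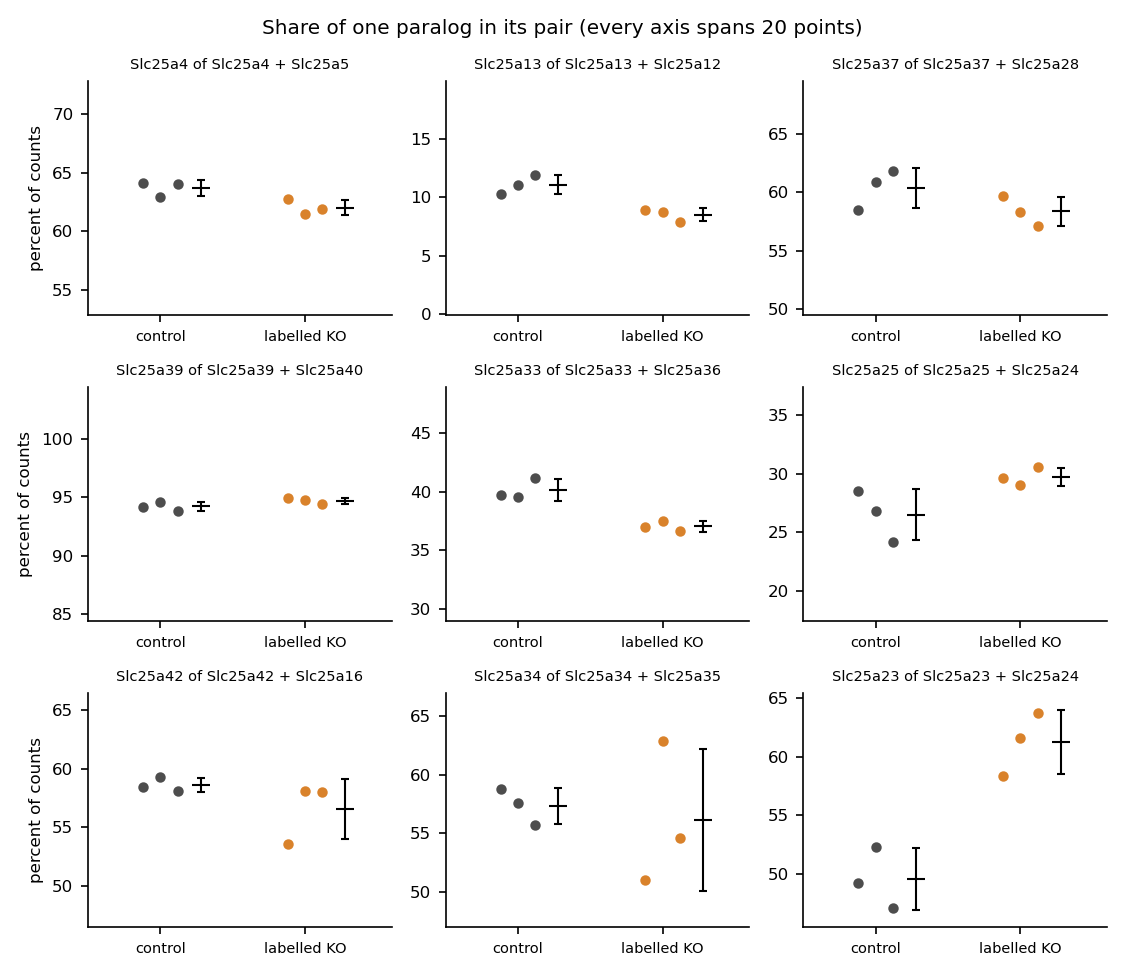
Share of 1 paralog in the counts of its pair (y axis, percent, every axis spanning 20 points) for 9 pairs, with each library as a point and the mean ± SD beside it. The groups are apart for Slc25a4, Slc25a13, Slc25a33, Slc25a25 and Slc25a23, and the gap is widest for Slc25a23 against Slc25a24.

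Beside the aspartate and glutamate carriers, the calls among carriers of amino acids and glutathione were those of Slc25a15 and Slc25a39, both near the threshold. Slc25a15 (ENSMUSG00000031482), the ornithine carrier of the urea cycle, was at 34.7, 35.7 and 32.9 CPM in controls and at 37.7, 42.2 and 39.6 CPM in the libraries labelled knockout (log2 0.21, SE 0.0604, adjusted p 0.045). The DESeq2 adjusted p was 0.119, and the edgeR call was lost without control 1, control 3, knockout 2 or knockout 3 (0.0971 to 0.163). Of the 6 tested enzymes of glutamate and ornithine metabolism edgeR called 0, with log2 fold changes from −0.11 to 0.09. Slc25a39 (ENSMUSG00000018677), which brings glutathione into mitochondria, stood at 304, 320 and 287 and at 331, 338 and 359 CPM (log2 0.17, SE 0.051, adjusted p 0.047). Its call held only when control 2 was left out and was lost without any 1 of the other 5 libraries (adjusted p 0.0585 to 0.215). Its relative Slc25a40 was at 18.7, 18.3 and 18.7 CPM in controls and at 17.7, 18.7 and 21.3 CPM in the libraries labelled knockout, which overlapped (adjusted p 0.757). Of 6 genes of glutathione synthesis and use, 0 rose and Gclm fell by 0.21 on the log2 scale (adjusted p 0.0494), a call lost without each library in turn.

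Slc25a44 (ENSMUSG00000050144), described as a carrier of branched-chain amino acids in brown fat, was at 117, 113 and 110 CPM in controls and at 118, 120 and 126 CPM in the libraries labelled knockout. The groups lay side by side without overlap, and the gene was not called (log2 0.10, 95% interval 0.0036 to 0.20, adjusted p 0.165). Of 7 genes for the first steps of branched-chain amino acid breakdown 4 rose and 1 fell, with a median of 0.32: the mitochondrial aminotransferase Bcat2 rose 1.28-fold (adjusted p 0.00124), the dehydrogenase subunits Dld, Dbt and Bckdhb rose 1.29-fold, 1.26-fold and 1.25-fold, and the cytosolic aminotransferase Bcat1 fell by 0.30 on the log2 scale (0.0288). The call for Bcat1 was lost without control 1, control 3 or knockout 3. Slc25a38, the glycine carrier of heme synthesis, was at 12.2 ± 0.553 and 11.04 ± 0.870 CPM (adjusted p 0.321).

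Of the cofactor carriers described here none was called. These 5 were the coenzyme A carriers Slc25a42 and Slc25a16, Slc25a17 of peroxisomes, the folate or FAD carrier Slc25a32 and the S-adenosylmethionine carrier Slc25a26, with log2 fold changes of −0.065, 0.056, 0.037, −0.10 and 0.16. Slc25a42 was at 113, 118 and 101 CPM in controls and at 97.5, 110.4 and 109 CPM in the libraries labelled knockout, and Slc25a16 at 80.6, 80.9 and 72.8 against 84.5, 79.6 and 79.2 CPM. Neither kept its groups apart. The mitoferrin genes, which import iron, were not called either, with Slc25a37 at 40.6, 42.8 and 48.7 against 46.0, 40.2 and 44.2 CPM and Slc25a28 at 28.9, 27.5 and 30.2 against 31.1, 28.8 and 33.1 CPM. Both overlapped between groups (adjusted p 0.888 and 0.367).

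Of 12 genes of iron-sulphur cluster and heme synthesis, the users of that iron, 5 rose and 0 fell, led by the cluster assembly gene Isca2 (1.27-fold, adjusted p 0.00223). The others were Alas1, the first enzyme of heme synthesis (1.21-fold), Isca1 (1.24-fold), Iscu (1.14-fold) and Glrx5 (1.17-fold). The call for Iscu was lost without each library in turn, those for Isca1 and Glrx5 without 4 and 5 of the 6 libraries, and that for Alas1 without control 1, knockout 2 or knockout 3. Of 7 genes of coenzyme A synthesis Pank1, a pantothenate kinase, rose 1.25-fold (adjusted p 0.033; lost without control 1, control 3, knockout 2 or knockout 3), and of 6 glycine and folate enzymes Mthfd2 and Gcsh rose 1.11-fold and 1.14-fold. The call for Mthfd2 was lost without each library in turn and that for Gcsh without 5 of the 6.

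Carriers whose substrate is not settled gave the largest rise and the widest spread of log2 fold changes, −0.50 to 0.51. The low end was Slc25a43 alone, at 6 to 20 counts per library and with a 95% interval of −1.40 to 0.40. Slc25a35 (ENSMUSG00000018740) went from 15.2, 18.4 and 13.1 CPM in controls to 22.1, 20.0 and 23.7 CPM in the libraries labelled knockout, a log2 fold change of 0.51 (SE 0.115, adjusted p 0.0163). The call was lost without control 1 or knockout 3 (adjusted p 0.0612 and 0.0866). In the GENCODE M21 annotation 31.3% of its exon bases overlap Rangrf on the opposite strand, which was counted at a mean of 0.791 CPM in controls. The strand setting of the counting is not given in the sources used here, so reads of the 2 genes cannot be told apart. Its close relative Slc25a34 was at 21.7, 25.0 and 16.4 and at 23.1, 33.9 and 28.5 CPM, which overlapped (log2 0.45, 95% interval 0.10 to 0.79, adjusted p 0.0859), and it passed the threshold without control 2 (0.0317) or knockout 1 (0.035). Slc25a46, an outer-membrane member tied to mitochondrial shape, was at 101 ± 5.87 and 113 ± 3.07 CPM (adjusted p 0.0661). The relatives of the uncoupling proteins, Slc25a14, Slc25a27 and Slc25a30, all had negative fold changes, from −0.29 to −0.055, and were not called (adjusted p 0.263 to 0.838). Slc25a43, Slc25a45 and Slc25a47 were at most 6.78 CPM in any library and were not called.

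**Figure D5:**
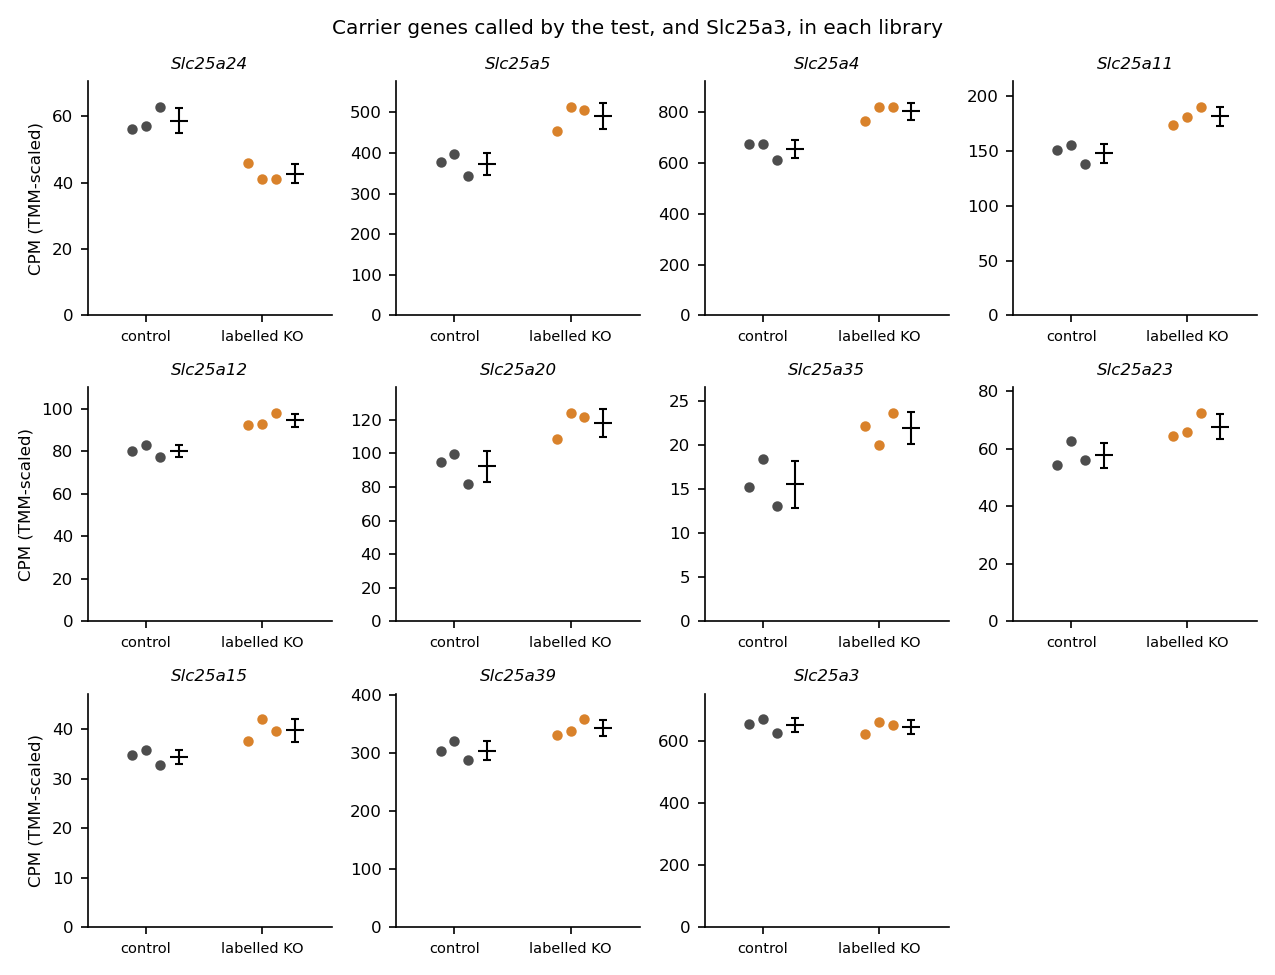
CPM of 10 called carriers and of Slc25a3 in each library (y axis from 0, TMM-scaled CPM; points are libraries, bars the mean ± SD of 3). The libraries labelled knockout lie below all controls for Slc25a24, above all controls for the rises shown, and overlap with them for Slc25a3.

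Family members that carry other names fell outside the naming rule, and 4 of the 7 tested rose. Ucp1 rose by 0.54 on the log2 scale, from 70.9 ± 8.35 to 103 ± 7.57 CPM (adjusted p 0.00241), Ucp2 1.27-fold (0.00717), Ucp3, at 2.97 CPM in controls, 1.70-fold (0.0252), and Mtch2, an insertase of the outer membrane, 1.18-fold (0.00804). The call for Ucp3 was lost without control 3 or knockout 3 and that for Mtch2 without knockout 3. Mcart1, whose ID is Slc25a51 in GENCODE M21 and which carries NAD, was at 211 ± 16.3 and 237 ± 7.28 CPM (adjusted p 0.0766). Of 20 tested mitochondrial transporters of other families 7 rose and 0 fell, with a median of 0.18. Both subunits of the mitochondrial pyruvate carrier were among them: Brp44, an older name of Mpc2, rose 1.28-fold (adjusted p 0.00214) and Brp44l, or Mpc1, 1.41-fold (0.0054). Letm1, a cation exchanger, rose 1.18-fold and Abcb6, a porphyrin transporter, 1.24-fold, and both calls were lost without knockout 3.

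The rises shared a pattern across libraries. Control 3 was the lowest control for 9 of the 10 carriers that rose, Slc25a23 being the exception, and knockout 1 the lowest of its group for 9, Slc25a35 being the exception. The same held for many other genes that rose: control 3 was the lowest control for 74.6% and knockout 1 the lowest of its group for 69.0% of all genes that rose. Over all tested genes, called or not, control 3 was the lowest control for 36.1%. The share for knockout 1 over all tested genes was not computed. The calls were made on these same libraries, so the called rises are not an independent comparison. Control 3 also had the lowest summed adipocyte markers (9586 CPM) and the highest summed fibroblast markers (24054.5 CPM) of all 6 libraries. Without control 3, 7 carriers rose and 2 fell, the second being Slc25a1. The part of this library in the result beyond that was not tested.

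What the depth allowed differed among the carriers. The 22 with at least 500 counts in every library had SEs of 0.0442 to 0.075 on the log2 scale, and the 7 under 10 CPM in controls had SEs of 0.0984 to 0.408. By rounded FPKM, 3 of the 4 carriers at a mean of at least 100, 8 of the 25 from 5 to under 100 and 0 of the 9 under 5 were called. The shares of all tested genes called at these levels were not computed, and the part of depth in the calls was not tested. Of the 47 carriers listed by substrate, 9 had no row under that name and were not analysed here beyond the Mcart genes: Slc25a2, Slc25a18, Slc25a21, Slc25a31, Slc25a41, Slc25a48, Slc25a51, Slc25a52 and Slc25a53.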

How the data were processed

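Per the labels' protocols, poly(A) RNA of 6 libraries was sequenced from stranded libraries. The authors deposited whole-number counts for each gene and FPKM values rounded to whole numbers, which are used here as a score for levels per length and not tested. The submitters' processing notes name mm9 as build and Novoalign 2.8, Picard and DESeq2 as tools, without roles. Which counter was used, with which strand setting, and how it treated reads shared by near-identical copies is not given in the sources used here. Every listed gene had at least 10 counts in some library.

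Counts were fitted with edgeR 4.0.16 (R 4.3.3): expression filter by group (13192 genes kept, 770 set aside), TMM, quasi-likelihood test on the group alone, Benjamini-Hochberg adjustment over all tested genes, threshold 0.05. SEs are |log2 fold change|/√F. The scripts were tested on simulated data. Alternatives were DESeq2 1.42.0, limma-voom 3.58.1, other scalings, no filter, a replicate block and leaving out each library. Each pair of libraries within a group differed beyond sampling noise (chi-square per degree of freedom 2.88 to 7.53).

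Members, substrate groups and lists were chosen with earlier results of these data known. Values per library are given for called carriers, the 4 highest by rounded FPKM and both genes of each pair; from each list up to 4 called genes are named (all if 5 or fewer). Slc25a1, Slc25a10, Slc25a38, Slc25a44, Slc25a46, Acly, Mdh2 and Mcart1 were added after their values were seen. Results for some items are not reported here, though totals include them. Upstream windows were matched to 30 carriers by symbol, and for 30 of their 38 windows the bases after the start lay in a GENCODE M21 transcript of the gene in the same orientation.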

Additional observations from a re-analysis of the deposited data

How the results depend on the processing

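The number of carriers that rose was 9 with DESeq2 and 10 with limma-voom, DESeq2 size factors, library size alone, no low-count filter and the replicate block. No name was repeated, so summing rows of one name had nothing to change. The number that fell was 1, and 2 with library size alone or with the replicate block, where Slc25a1 joined. The fit with the replicate block called 1809 genes in all; it lost Slc25a39 (adjusted p 0.0606) and gained Slc25a34. No pairing by replicate number stood out: correlations of deviations were −0.04, 0.19 and 0.03 for numbers 1 to 3. Between unlike numbers they ran from −0.24 to 0.23. With 3 libraries per group these values cannot exclude pairing. Leaving out 1 library at a time, 4 to 12 carriers rose, 1 to 2 fell, and 621 to 1895 genes were called in all, against 1629 with all libraries; fewer libraries were then tested. The smallest counts, 621 genes and 4 carriers, came without knockout 3. Over single carriers and settings, 421 values kept direction and side of the threshold, 19 lost a call, 7 gained one and 9 turned sign. The turns were in uncalled carriers: over the fits without 1 library, log2 fold changes ran from −0.46 to 0.028 for Slc25a27, −0.039 to 0.014 for Slc25a3, −0.074 to 0.064 for Slc25a37, −0.032 to 0.11 for Slc25a40, −0.051 to 0.086 for Slc25a45 and −0.41 to 0.10 for Slc25a47. The share of Slc25a13 in its pair fell by 4.71 points per implied length, against 2.59 points in counts. The cause of these differences was not tested.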
